A study of Mus musculus with 12 samples.

Results

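Developing red cells take up iron, store it and pass it to mitochondria, and 10 genes of this route are described here: Tfrc, Steap3, Slc11a2, Slc25a37, Slc25a38, Fth1, Ftl1, Ncoa4, Slc40a1 and Ireb2. They were picked by gene name from the 29838 genes of an RNA-sequencing table, and all 10 were among the 12994 genes with enough signal to be tested. Wild-type (WT) erythroblasts had been sorted from marrow of male C57/BL6 mice aged 8 weeks, and the study compared each later stage of maturation with the proerythroblast. There were 4 groups of 3 libraries: proerythroblasts (Pro, CD44-high and Ter119-low), then basophilic (Baso), polychromatic (Poly) and orthochromatic (Ortho) erythroblasts, which were gated by CD44 and cell size among Ter119-positive cells. All 4 groups shared the WT genotype, no treatment was given, and every gate left out cells positive for CD45, CD11b or GR1. The cell type given for Ortho replicates 2 and 3 is erythroblast without a stage, and their titles placed them.

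Erythroblasts take in transferrin-bound iron through the transferrin receptor, reduce it in the endosome and move it into the cytosol, from where mitoferrin carries it across the inner mitochondrial membrane for heme and iron-sulfur cluster synthesis. Ferritin stores what is not used, an autophagy receptor sends ferritin to lysosomes to free its iron, and ferroportin is the only known cellular exporter of iron. Iron regulatory proteins sense iron and bind a hairpin, the iron-responsive element, whose position in a transcript decides whether binding blocks translation or protects the transcript from decay.

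These hairpins are printed because they divide the 10 genes by a feature that expression did not choose. Transcripts of GENCODE M21 (mouse build mm10) were searched on the sense strand for a C and 5 bases before the loop CAGTGN and 5 bases after it, in which the 5 bases on either side had to pair with each other. The pattern and the 10 genes were both chosen for a known part in iron handling. The counts of matches are therefore a description and not a test of enrichment. Of the 10 genes, 4 held a match in an untranslated region, 7 matches in all, against 103 of 10843 tested protein-coding genes (0.950%). Each is shown as 27 bases, 5′ to 3′, with the loop in capitals.
Tfrc, 3′ UTR, first: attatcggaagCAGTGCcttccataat
Tfrc, 3′ UTR, second: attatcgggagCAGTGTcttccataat
Tfrc, 3′ UTR, next: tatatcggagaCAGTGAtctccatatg
Tfrc, 3′ UTR, last: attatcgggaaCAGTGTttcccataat
Slc40a1, 5′ UTR: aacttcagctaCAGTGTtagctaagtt
Fth1, 5′ UTR: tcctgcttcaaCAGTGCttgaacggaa
Ftl1, 5′ UTR: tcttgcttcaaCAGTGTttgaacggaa
The 4 Tfrc hairpins lie in exon 19 of 19, on the plus strand, at chr16:32631220-32631246, chr16:32631599-32631625, chr16:32631664-32631690 and chr16:32631711-32631737. The other 3 lie in exon 1 of their genes, at chr1:45925466-45925492 (minus strand) for Slc40a1, chr19:9982733-9982759 (plus strand) for Fth1 and chr7:45459780-45459806 (minus strand) for Ftl1. Both ferritin hairpins have the same paired bases, ttcaa and ttgaa. A match describes letters in a transcript, and the transcripts without one may hold hairpins of another shape.

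Values are FPKM, fragments per length of transcript scaled to the reads mapped, so that genes can be compared within a library. Between libraries, a gene's FPKM also depends on what the other genes take up. Hemoglobin genes took 6.98% to 10.7% of the total in Pro, 33.2% to 36.7% in Baso, 34.8% to 37.6% in Poly and 47.2% to 52.6% in Ortho. The libraries were therefore also rescaled in 3 other ways: to the same sum, to the same sum with the hemoglobin genes left out, and by median centring. Library totals ran from 505624 to 691033 FPKM and the read depth is unknown, so each value's error is the spread over 3 libraries. The erythroid markers were present at every stage, and Alas2, which encodes the erythroid enzyme of the first step of heme synthesis, averaged 336 FPKM at the Pro stage, 1439.5 at Baso, 1399.7 at Poly and 2221 at Ortho. A gene is said to have risen or fallen where limma's test on log2(FPKM + 1), adjusted over all 12994 genes, gave a p under 0.05. The labels do not say whether libraries of a stage came from separate mice, so these p-values measure the spread between libraries, which may be technical. In bulk RNA, fewer cells that express a gene and less of its RNA per cell cannot be told apart.

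**Figure D1:**
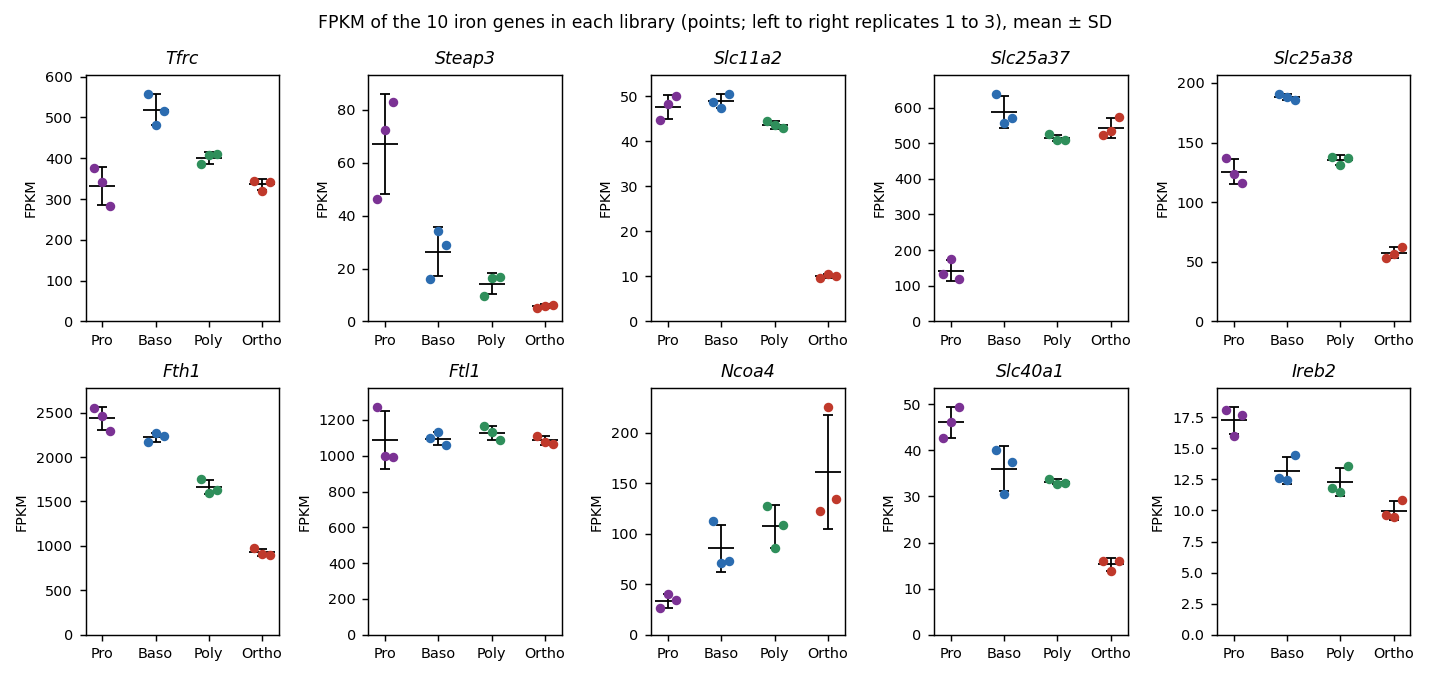
FPKM (vertical axes, each from 0) of the 10 iron genes in Pro, Baso, Poly and Ortho. Points are libraries and bars the mean ± SD (n = 3); Slc25a37 rises from 142 in Pro to 588 in Baso, Steap3 falls from 67.2 in Pro to 5.77 in Ortho, and Ftl1 stays between 1085 and 1129.

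The uptake genes took 3 different courses over maturation. Tfrc (ENSMUSG00000022797, chr16:32608920-32632794), which encodes the transferrin receptor CD71, read 375, 341 and 283 FPKM in Pro, 559, 482 and 516 in Baso, 385, 409 and 411 in Poly and 345, 321 and 342 in Ortho. All Baso libraries lay above all others, while the Ortho range fell within that of Pro. Tfrc rose by 0.65 ± 0.099 (SE) on the log2 scale from Pro to Baso (limma adjusted p = 0.000215) and fell by 0.62 ± 0.099 from Baso to Ortho (limma adjusted p = 0.000364). Its Ortho and Pro levels, 336 ± 13.2 and 333 ± 46.5 FPKM (SD, n = 3), differed by 0.021 on the log2 scale (95% interval -0.20 to 0.24, limma adjusted p = 0.853), but this call depends on the scaling: the difference was -0.35 with libraries rescaled to the same sum and 0.51 with the hemoglobin genes left out, and both passed the test in opposite directions (limma adjusted p = 0.0138 and 0.00139). Between neighbouring later stages the fall from Baso to Poly was -0.37 (limma adjusted p = 0.0368), and from Poly to Ortho the difference was -0.26, with a limma adjusted p of 0.0833, or 0.0150 in a fit of the 3 later stages paired by replicate number. Without 1 library at a time, 5 of 12 fits kept the Baso to Poly call, which was also lost with libraries rescaled to the same sum and with the hemoglobin genes left out (limma adjusted p = 0.0607 and 0.0651).

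Steap3 fell throughout. This ferrireductase (ENSMUSG00000026389, chr1:120190757-120272705) reduces ferric iron in the endosome before it can be transported. Its FPKM was 46.1, 72.4 and 83.0 in Pro, 16.1, 34.3 and 28.7 in Baso, 9.74, 16.4 and 16.9 in Poly and 5.08, 5.84 and 6.40 in Ortho. Only the Baso and Poly ranges overlapped among the stages, and replicate 1 was the lowest library at all 4 stages. The mean was 11.6 times lower in Ortho than in Pro, and the log2 fold change of -3.29 ± 0.29 (limma adjusted p = 1.04e-06) was lower than that of all but 0.192% of the genes tested. Steap3 fell by 1.34 ± 0.29 from Pro to Baso (limma adjusted p = 0.00213) and by 1.15 ± 0.29 from Poly to Ortho (limma adjusted p = 0.0107, and 0.0508 with no filter on low values). The intervening step of -0.81 ± 0.29 missed the test (limma adjusted p = 0.0890), passed it with libraries paired by replicate number (limma adjusted p = 0.0122), and passed it without Baso replicate 1, at -1.11.

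As deposited, Slc11a2 changed at a single step. It encodes DMT1, the divalent metal transporter that carries ferrous iron out of the endosome (ENSMUSG00000023030, chr15:100387898-100425072). Pro libraries read 44.8, 48.2 and 50.1 FPKM, Baso 48.7, 47.5 and 50.6, Poly 44.6, 43.6 and 42.9, and Ortho 9.72, 10.6 and 10.2. The 9 earlier libraries lay within 42.9 to 50.6 FPKM and the Ortho libraries stood far below them. The fall from Poly to Ortho was 4.30 times in the mean and -2.00 ± 0.066 on the log2 scale (limma adjusted p = 7.52e-09). Ortho against Pro gave -2.12 (limma adjusted p = 1.69e-09), which stayed between -2.47 and -1.65 under the 4 scalings. Baso against Pro gave 0.037 (95% interval -0.11 to 0.18, limma adjusted p = 0.653), with the sign turned to -0.14 by rescaling to the same sum and to -0.0069 without Pro replicate 1, and with a passing rise of 0.35 once the hemoglobin genes were left out. Slc11a2 makes transcripts with and without a known iron-responsive element of a shape not searched for here, and values per gene do not separate them. An unnamed gene model, Gm5475, overlaps it on the opposite strand, and the use of strand in counting is not given in the sources used here.

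The mitochondrial carriers rose together from Pro to Baso and then parted. Slc25a37 encodes mitoferrin 1, the erythroid importer of iron into mitochondria (ENSMUSG00000034248, chr14:69241848-69285112). Its FPKM was 132, 176 and 119 in Pro, 639, 557 and 569 in Baso, 525, 509 and 509 in Poly and 522, 533 and 574 in Ortho. Every later library was at least 509 FPKM and no Pro library was above 176. The rise from Pro to Baso was 4.14 times in the mean and 2.06 ± 0.12 on the log2 scale (limma adjusted p = 1.56e-06). Thereafter the differences were small and missed the test: -0.19 from Baso to Poly (95% interval -0.46 to 0.075, limma adjusted p = 0.324) and 0.076 from Poly to Ortho (95% interval -0.19 to 0.34, limma adjusted p = 0.734), the latter turning to -0.11 with libraries rescaled to the same sum. Ortho against Pro stood at 1.94 ± 0.12 (limma adjusted p = 7.95e-08) and above 98.9% of the genes tested. It is overlapped by 4 gene models, 3 of them on the opposite strand.

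Slc25a38 encodes the mitochondrial glycine carrier that feeds the first step of heme synthesis and is mutated in a congenital sideroblastic anemia (ENSMUSG00000032519, chr9:120110374-120124504). It read 137, 124 and 116 FPKM in Pro, 191, 188 and 186 in Baso, 138, 131 and 137 in Poly and 53.5, 56.9 and 62.7 in Ortho. Baso stood above and Ortho below all other libraries, and the Pro and Poly ranges overlapped. It rose by 0.58 ± 0.077 on the log2 scale from Pro to Baso (limma adjusted p = 6.97e-05), fell by 0.47 ± 0.077 from Baso to Poly (limma adjusted p = 0.00467) and fell by 1.22 ± 0.077 from Poly to Ortho (limma adjusted p = 3.38e-07). Each of these steps passed the test in the same direction under all 4 scalings. Poly against Pro did not: its 0.11 (limma adjusted p = 0.219) was -0.068 with libraries rescaled to the same sum and 0.46, past the test, with the hemoglobin genes left out.

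Of the ferritin subunits, Fth1 fell over maturation, while no difference in Ftl1 between stages passed the test. Fth1 encodes the heavy chain, which has the ferroxidase site (ENSMUSG00000024661, chr19:9980598-9985098). Its FPKM was 2549, 2463 and 2294 in Pro, 2165, 2267 and 2233 in Baso, 1748, 1596 and 1634 in Poly and 977, 906 and 895 in Ortho. The ranges of the 4 stages did not overlap and descended in order. Fth1 fell by 0.42 ± 0.079 on the log2 scale from Baso to Poly (limma adjusted p = 0.00865, and 0.0562 with no filter on low values) and by 0.84 ± 0.079 from Poly to Ortho (limma adjusted p = 7.52e-06). From Pro to Baso it changed by -0.13 (95% interval -0.30 to 0.041, limma adjusted p = 0.175), and the sign there turned to 0.17 with median centring and 0.19 with the hemoglobin genes left out. Ortho against Pro gave -1.39 ± 0.079 (limma adjusted p = 3.9e-08).

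Ftl1, the light chain, which supports mineral formation in the ferritin core (ENSMUSG00000050708, chr7:45457944-45459884), had 1273, 997 and 991 FPKM in Pro, 1096, 1134 and 1057 in Baso, 1165, 1134 and 1087 in Poly and 1111, 1078 and 1067 in Ortho. All 4 ranges overlapped, and the stage means differed by 1.04 times at most, the smallest such range of the 10 genes. Ortho against Pro gave 0.0074 on the log2 scale (95% interval -0.21 to 0.22, limma adjusted p = 0.949). That level is relative: the difference was -0.36 with libraries rescaled to the same sum (limma adjusted p = 0.00826), 0.50 with the hemoglobin genes left out (limma adjusted p = 0.00112) and 0.40 with median centring (limma adjusted p = 0.00285). The ferritin copies Ftl1-ps1, annotated as protein-coding, and Ftl2-ps, a processed pseudogene, averaged 26.1 and 17.5 FPKM in Pro and 21.4 and 14.2 in Ortho. How reads shared with Ftl1 were divided is not given in the sources used here, so ferritin values are uncertain to that extent.

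Ncoa4 encodes the receptor that delivers ferritin to lysosomes, a process called ferritinophagy (ENSMUSG00000056234, chr14:32159865-32179855). Its FPKM was 26.3, 40.3 and 34.7 in Pro, 112, 70.9 and 73.2 in Baso, 128, 85.4 and 109 in Poly and 122, 226 and 135 in Ortho. All later libraries lay above all Pro libraries, and the later stages overlapped except that every Ortho library lay above every Baso library. Ncoa4 rose by 1.30 ± 0.26 on the log2 scale from Pro to Baso (limma adjusted p = 0.00116) and stood 2.19 ± 0.26 above Pro in Ortho (limma adjusted p = 1.13e-05), a higher change than that of 99.2% of the genes tested. The steps from Baso to Poly (0.34, 95% interval -0.22 to 0.90, limma adjusted p = 0.411) and from Poly to Ortho (0.54, 95% interval -0.018 to 1.10, limma adjusted p = 0.158) missed the test. The Ortho mean leaned on replicate 2: Ortho against Baso was 0.88 (limma adjusted p = 0.0149), and it was 0.61 without that library (limma adjusted p = 0.0587), 0.77 without Baso replicate 2 (limma adjusted p = 0.0572) and 0.79 without Baso replicate 3 (limma adjusted p = 0.0556). The call was also lost with no filter on low values (limma adjusted p = 0.0606).

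The genes of export and sensing both ended lower than they began. Slc40a1 encodes ferroportin (ENSMUSG00000025993, chr1:45908068-45926523) and read 42.8, 46.1 and 49.4 FPKM in Pro, 40.1, 30.5 and 37.5 in Baso, 33.8, 32.8 and 33.0 in Poly and 16.0, 13.7 and 16.1 in Ortho. Ortho libraries lay far below the rest, and Baso and Poly overlapped. The fall from Poly to Ortho was -1.07 ± 0.10 on the log2 scale (limma adjusted p = 9.41e-06), and the total from Pro was -1.53 ± 0.10 (limma adjusted p = 1.29e-07). The smaller fall from Pro to Baso, -0.35 ± 0.10 (limma adjusted p = 0.0120), was -0.057 with median centring and -0.044 with the hemoglobin genes left out, and missed the test under both.

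Ireb2 encodes iron regulatory protein 2 (ENSMUSG00000032293, chr9:54863789-54912530). Its FPKM was 18.1, 16.0 and 17.7 in Pro, 12.6, 12.5 and 14.5 in Baso, 11.8, 11.5 and 13.6 in Poly and 9.63, 9.45 and 10.9 in Ortho, with only Baso and Poly overlapping. Ortho against Pro gave -0.73 ± 0.094 on the log2 scale (limma adjusted p = 2.35e-05). This change was less negative than that of 35.8% of the genes tested. From Pro to Baso the change was -0.36 ± 0.094 (limma adjusted p = 0.00619) and from Poly to Ortho -0.27 ± 0.094, at a limma adjusted p of 0.0528, or 0.0105 with libraries paired by replicate number. The first of these was -0.066 and missed the test with the hemoglobin genes left out, and likewise with median centring.

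**Figure D2:**
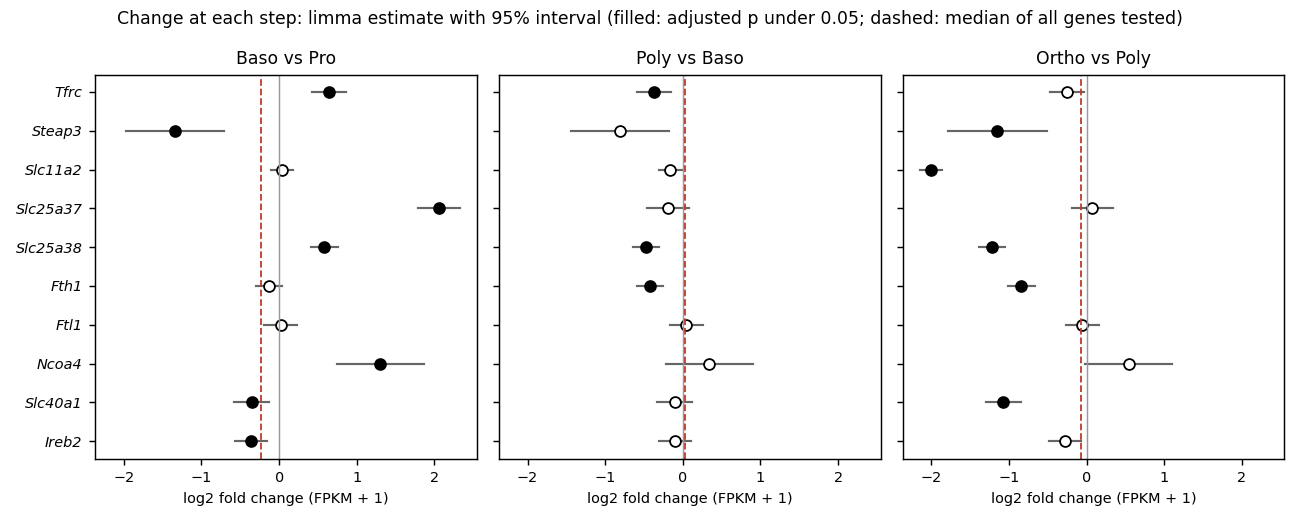
Log2 fold change of FPKM + 1 (horizontal axis) of the 10 genes at the 3 successive steps, as limma estimates (points) with 95% intervals (bars); filled points passed the test, and the dashed line is the median of all genes tested. In the step to Baso 4 genes rose and 3 fell, and in the steps to Poly and to Ortho the 3 and 5 genes that passed all fell. Of all genes tested, 57%, 12.4% and 26.1% passed at these steps. The split at the first step depended on the scaling.

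Counted together, the genes of the route that passed the test went in both directions at the first step and only downwards at the last. From Pro to Baso 4 of the 10 genes rose (Tfrc, Slc25a37, Slc25a38 and Ncoa4) and 3 fell (Steap3, Slc40a1 and Ireb2), where 14.9% of all genes tested rose and 42.1% fell, 57% in all. From Baso to Poly none rose and 3 fell (Tfrc, Slc25a38 and Fth1), against 6.58% and 5.77% of all genes, 12.4% in all. From Poly to Ortho none rose and 5 fell (Slc11a2, Steap3, Slc25a38, Slc40a1 and Fth1), against 4.43% and 21.7%, 26.1% in all. At that last step 4 of the 5 fell at least 2-fold, as did 4.81% of all genes, and the median change of the 10 was -0.56 where that of all genes was -0.078. The lack of any rise at the 2 later steps held under all 4 scalings and without each library in turn. As deposited, however, only 6.58% and 4.43% of all genes rose at these steps. With shares so small, a lack of rises among 10 genes does not set the route apart. The shares of all genes that rose under the other scalings were not set beside it.

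Against Pro, Ortho had 2 genes higher (Slc25a37 and Ncoa4) and 6 lower (Slc11a2, Steap3, Slc25a38, Slc40a1, Fth1 and Ireb2), where 22.7% of all genes were higher and 53.2% lower. The shares that passed, 8 of 10 and 75.9%, are close to each other. Both rises and 5 of the 6 falls were at least 2-fold, against 6.33% and 23.8% of all genes. Poly against Pro gave 3 higher (Tfrc, Slc25a37 and Ncoa4) and 4 lower (Steap3, Slc40a1, Fth1 and Ireb2), beside 23.3% and 42.7% of all genes, 66.1% in all. The Tfrc rise in Poly, 0.28 (limma adjusted p = 0.0274), was 0.17 without Pro replicate 3 and 0.10 with libraries rescaled to the same sum, and missed the test in both. It also missed the test with no filter on low values (limma adjusted p = 0.0645), with only the 2 stages in the fit (limma adjusted p = 0.0728), and without Poly replicate 2 or 3 (limma adjusted p = 0.0721 and 0.0766). The falls of Slc40a1 and Ireb2 in Poly, both -0.46, were each -0.21 with median centring (limma adjusted p = 0.0773 and 0.0629) and were -0.12 and -0.13 with the hemoglobin genes left out (limma adjusted p = 0.307 and 0.232). These 3 comparisons share the Pro libraries, and the genes' values in each stand above.

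The split between rises and falls depended on the scaling. All genes tested had a median of -0.42 in Ortho against Pro as deposited, -0.72 with libraries rescaled to the same sum, and -0.028 both with median centring and with the hemoglobin genes left out. Relative to the deposited median, Tfrc stood at 0.45, Ftl1 at 0.43, Slc25a37 at 2.37, Ncoa4 at 2.61, Slc25a38 at -0.68, Fth1 at -0.97, Slc40a1 at -1.11, Slc11a2 at -1.70, Steap3 at -2.87 and Ireb2 at -0.31. The same 8 genes passed in the same direction under all 4 scalings, and Tfrc and Ftl1 joined them as 2 more falls with rescaling to the same sum and as 2 more rises under the other 2. In Baso against Pro the split of 4 higher and 3 lower became 4 and 4 with rescaling, and 6 and 1 under each of the others, with Steap3 the gene that fell in every case. Among all genes that passed there, the share that were higher moved the same way, from 26.2% to 14.8% with rescaling, 56.5% with median centring and 52.6% with the hemoglobin genes left out. In Poly against Pro the 3 and 4 became 2 and 5 with rescaling, 6 and 2 with the hemoglobin genes left out, and 5 and 2 with median centring, while the share of all passing genes that were higher went from 35.3% to 26.05%, 56.4% and 53.0%.

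**Figure D3:**
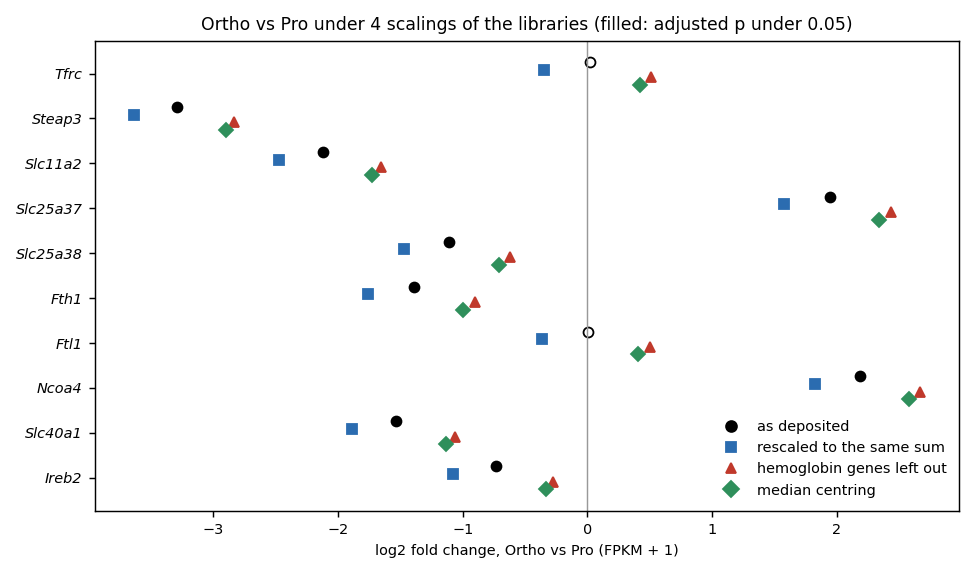
Log2 fold change of FPKM + 1 in Ortho against Pro (horizontal axis) for the 10 genes under 4 scalings (symbols), filled where the adjusted p was under 0.05. Tfrc and Ftl1 lie at -0.35 and -0.36 with libraries rescaled to the same sum and at 0.51 and 0.50 with the hemoglobin genes left out; the other 8 keep their side of 0.

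The order of the levels changed with maturation. In Pro, Fth1 (2435 ± 130 FPKM) and Ftl1 (1087 ± 161) came first, followed by Tfrc, Slc25a37, Slc25a38, Steap3, Slc11a2, Slc40a1, Ncoa4 and Ireb2. Among neighbours in that order, the ranges of Slc25a37 and Slc25a38, of Steap3 and Slc11a2, and of Slc11a2 and Slc40a1 overlapped. In Ortho, Ftl1 (1085 ± 23.0 FPKM) came first, then Fth1 (926 ± 44.3), Slc25a37 (543 ± 27.3), Tfrc (336 ± 13.2), Ncoa4 (161 ± 56.4), Slc25a38, Slc40a1, Slc11a2, Ireb2 and Steap3, and only Slc11a2 and Ireb2 overlapped. Summed, the 10 genes made up 0.837% of all FPKM at the Pro stage, 0.821% at Baso, 0.690% at Poly and 0.470% at Ortho.

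Ratios of 2 genes within a library do not depend on how that library is scaled, and they are given as descriptions. Heavy to light ferritin, Fth1 to Ftl1, was 2.00, 2.47 and 2.31 in Pro, 1.97, 2.00 and 2.11 in Baso, 1.50, 1.41 and 1.50 in Poly and 0.879, 0.840 and 0.839 in Ortho. Pro and Baso overlapped, and the ratio was lower in every Poly library and below 1 in every Ortho library. Ncoa4 to Fth1 averaged 0.0139 at the Pro stage, 0.0386 at Baso, 0.0644 at Poly and 0.175 at Ortho with no overlap between stages, although in Ortho it ran from 0.125 to 0.249. The importer of transferrin iron against the exporter, Tfrc to Slc40a1, averaged 7.30 ± 1.52 at the Pro stage, 14.5 ± 1.13 at Baso, 12.1 ± 0.618 at Poly and 22.0 ± 1.16 at Ortho (SD, n = 3), and the ranges of successive stages were separate.

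The ratio of the mitochondrial importer to the receptor was higher at each stage than at the one before. Slc25a37 to Tfrc was 0.429 ± 0.0818 at the Pro stage, 1.13 ± 0.0274 at Baso, 1.28 ± 0.0704 at Poly and 1.62 ± 0.0912 at Ortho, again without overlap. Slc25a37 to Slc25a38, iron against glycine delivery, went from 1.14 in Pro through 3.12 and 3.80 to 9.42 in Ortho. Slc25a28, which encodes mitoferrin 2, the form of other tissues, averaged 19.4 FPKM in Pro and 15.4 in Ortho, and the ratio of mitoferrin 1 to 2 was 7.36 in Pro and 37.3, 28.5 and 35.8 in Baso, Poly and Ortho. Ireb2 to Aco1, the genes of iron regulatory proteins 2 and 1, was 0.778 in Pro and 1.78, 2.06 and 1.97 in the later stages, whose neighbouring ranges overlapped.

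**Figure D4:**
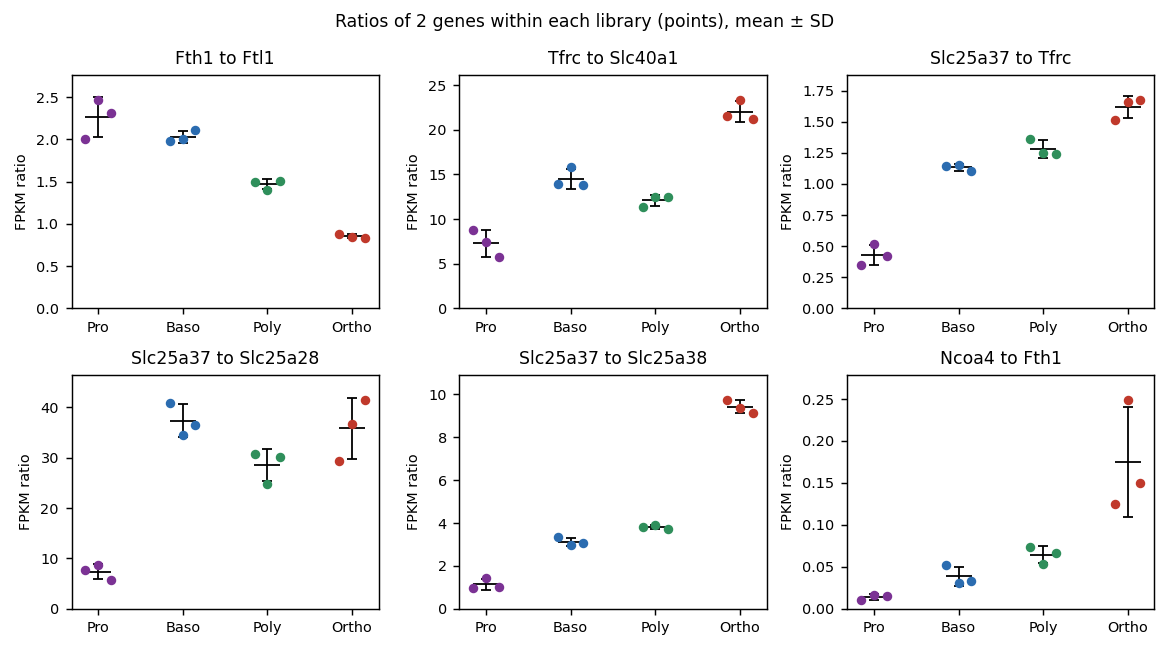
Ratio of the FPKM of 2 genes (vertical axes, each from 0) within each library (points), with the mean ± SD of 3 libraries per stage. Fth1 to Ftl1 averages 2.26 in Pro and 0.853 in Ortho, Slc25a37 to Tfrc 0.429 and 1.62, and Ncoa4 to Fth1 0.0139 and 0.175.

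Other genes of iron handling were listed by role, and 45 of the 52 found in the table could be tested. In Ortho against Pro 11 of the 45 were higher and 30 lower, where 22.7% of all genes tested were higher and 53.2% lower, and the median was -0.69 where all genes had -0.42. The counts were 7 and 33 with libraries rescaled to the same sum, 12 and 22 with the hemoglobin genes left out, and 12 and 21 with median centring. Of all genes that passed, the higher ones made up 29.9% as deposited, 18.9% with rescaling, 49.3% with median centring and 49.7% with the hemoglobin genes left out. In the list of uptake and the endosome 3 of 9 were higher and 6 lower, and 1 and 6 with rescaling to the same sum. Slc39a8, a metal importer, fell from a mean of 25.3 to one of 1.37 FPKM (log2 fold change -3.47 ± 0.12, limma adjusted p = 2.24e-09), and Tfr2, the second transferrin receptor, fell from 54.3 ± 6.23 to 6.17 ± 0.721 (-2.95 ± 0.11, limma adjusted p = 3.84e-09). Snx3 and Vps35, which return the transferrin receptor from the endosome to the surface, fell by 1.33 and 1.08 on the log2 scale. Mcoln1, a lysosomal channel, was lower (-0.65), but missed the test at -0.25 with median centring (limma adjusted p = 0.112) and at -0.18 with the hemoglobin genes left out (limma adjusted p = 0.235). Steap4 and Slc39a14 were higher (0.70 and 0.45) from means of 0.965 and 1.39 FPKM over all libraries, and Slc39a14 lost its call with rescaling to the same sum (0.25, limma adjusted p = 0.125).

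Storage and chaperone genes were lower in 5 of 5 cases, where 53.2% of all genes tested were lower. With median centring or with the hemoglobin genes left out, 3 of 5 were lower. Pcbp1 and Pcbp2 encode proteins that hand iron to ferritin, and the former fell by 1.21 on the log2 scale (limma adjusted p = 8.82e-07) and the latter by 0.69, a call that was lost with median centring and with the hemoglobin genes left out. Bola2 and Glrx3, partners in cytosolic iron-sulfur cluster transfer, were at -1.02 and -0.75. Of 5 genes of export and systemic control 2 were higher, beside 22.7% of all genes tested. Slc48a1, which encodes a heme transporter of endosomes and lysosomes, went from 47.0 ± 7.14 FPKM to 110 ± 1.89 (1.22, limma adjusted p = 5.14e-07). The heme-degrading enzyme gene Hmox1 went from 4.05 ± 0.611 to 9.50 ± 0.225 (1.06, limma adjusted p = 2.06e-05). Erfe, the gene of erythroferrone, the erythroid hormone that acts on hepcidin, was lower (-0.89) from a mean of 1.13 FPKM, and lost its call with median centring. Hmox2 gave -0.30 (limma adjusted p = 0.235), which turned to 0.16 with the hemoglobin genes left out.

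Among 5 sensing genes, 3 were lower and 2 higher, beside 53.2% and 22.7% of all genes tested. Aco1 was at -1.94 (limma adjusted p = 2.62e-07), and Cisd1 and Cisd2, which encode iron-sulfur proteins of mitochondria and the endoplasmic reticulum, at -1.78 and -0.94. Fbxl5, whose product marks iron regulatory protein 2 for breakdown when iron is plentiful, was higher by 0.52 (limma adjusted p = 0.00476), and Hif1a by 0.58, and both lost their calls with rescaling to the same sum. In mitochondria 4 of 21 genes were higher and 15 lower, beside 22.7% and 53.2% of all genes tested. The counts were 5 and 10 once the hemoglobin genes were left out. Tmem14c, a protein needed for the porphyrin precursor to reach the matrix side, fell from 547 ± 71.7 FPKM in Pro through 451 and 216 to 78.3 ± 8.89 in Ortho (-2.79, limma adjusted p = 5.97e-09). Abcb10, an inner-membrane transporter that binds mitoferrin 1, was at -0.47, and at -0.078 with median centring and 0.015 with the hemoglobin genes left out, past the test in neither. Slc25a39, a mitochondrial glutathione carrier, rose from 67.2 ± 14.7 to 239 ± 33.7 FPKM (1.83, limma adjusted p = 1.0e-06), beside Hscb (1.96), a co-chaperone of cluster assembly, and Isca1 (1.08), a late-acting assembly factor.

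**Figure D5:**
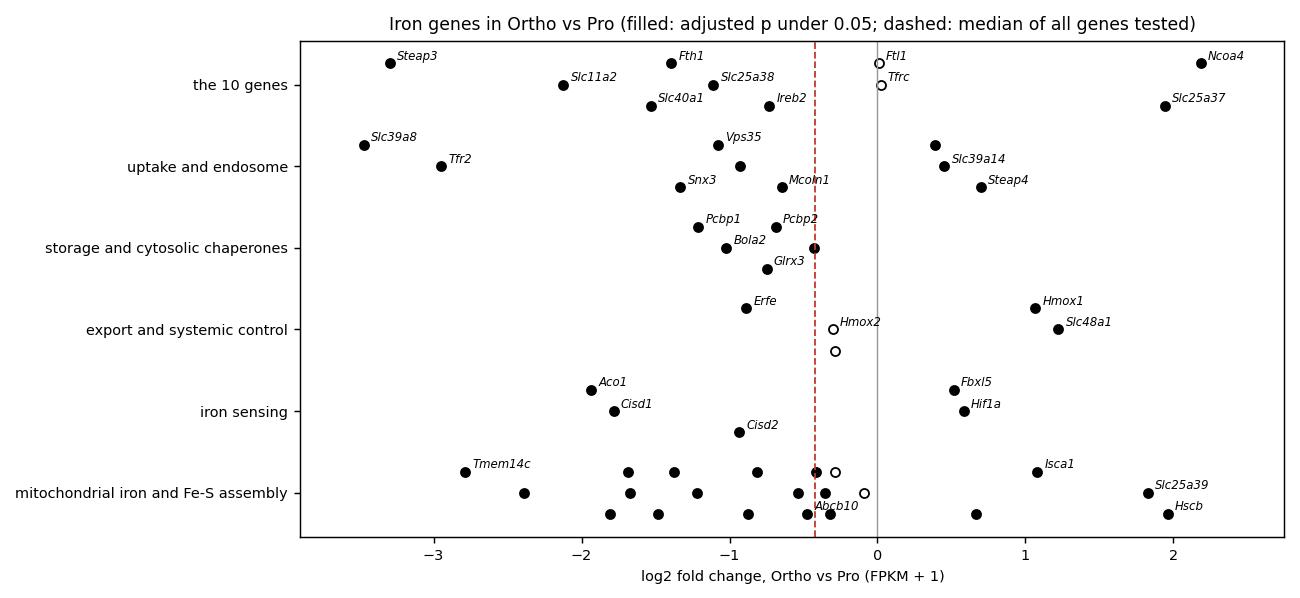
Log2 fold change of FPKM + 1 in Ortho against Pro (horizontal axis) of the 10 genes (top row) and of the 45 other iron genes by list (rows); each point is a gene, filled where the adjusted p was under 0.05, and the dashed line is the median of all genes tested, -0.42. Vertical offsets within a row only separate points; Slc39a8 at -3.47 and Steap3 at -3.29 lie farthest left, and Ncoa4 at 2.19 farthest right.

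Genes with the most similar course were named for each of the 10 by Pearson's r of log2(FPKM + 1) over the 12 libraries, among 6011 genes with a mean of at least 10 FPKM. The points share 4 stages and the libraries' composition, so high values are common and are only a description. Slc25a37 was most like Dhrs11 (r = 0.995), Slc1a5 and the globin gene Hbq1b (both r = 0.991). Slc11a2 was most like Gclc (r = 0.997) and the mitotic genes Bub1 and Kif20a (both r = 0.996), and Slc25a38 like Gid8, the cyclin gene Ccnb2 (both r = 0.995) and Mpst (r = 0.993). Tfrc was most like Btnl10 (r = 0.960), Ddhd1 (r = 0.942) and Fn3k (r = 0.938), Steap3 like Dnajc19 (r = 0.982), Pola2 (r = 0.981) and Cela1 (r = 0.980), and Ncoa4 like Arl11 (r = 0.962), Zfand6 (r = 0.957) and Cdkn1b (r = 0.950), which encodes a cell cycle inhibitor. Slc40a1 was most like Ube3c, Cdc27 (both r = 0.991) and Hgs (r = 0.989), Fth1 like Ccdc6 (r = 0.996), 2310022B05Rik (r = 0.994) and Scaf1 (r = 0.993), and Ireb2 like Adnp (r = 0.983), Wrap53 (r = 0.982) and Nbn (r = 0.981). For Ftl1 the highest values were lower, at 0.825 with Gm42418, 0.789 with Arpc4 and 0.773 with its own copy Ftl1-ps1.

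Within the 10 genes, Slc40a1 and Fth1 had r = 0.952, Slc11a2 and Slc40a1 r = 0.948, and Slc11a2 and Fth1 r = 0.939. Ncoa4 ran opposite to Ireb2 (r = -0.917) and to Steap3 (r = -0.907).

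Markers of other blood cells moved with the stages although the gates excluded CD45, CD11b and GR1. The summed FPKM of 9 neutrophil genes was 7233 to 9030 in Pro, 12423 to 14569 in Baso, 15977 to 18972 in Poly and 14216 to 17631 in Ortho, led by S100a9 and S100a8. The sum of 12 macrophage genes, of which 6 could be tested, was between 1093 and 1231 in Pro and between 2506 and 2969 in Ortho, most of it Lyz2 (1129 to 2652 FPKM in the mean). Among its defining members Csf1r averaged 11.7 in Pro and 26.4 in Ortho and Adgre1 3.84 and 7.85, Vcam1 averaged 3.03 and 2.25 and missed the test (-0.31, limma adjusted p = 0.114), and C1qa, C1qb, C1qc, Mertk, Cd163 and Spic stayed under a mean of 1 at every stage and none was at 0 in all libraries. B cell genes (8) summed to between 142 and 227 in Pro and between 442 and 455 in Ortho, T and NK cell genes (7) to between 20.8 and 29.6 and between 33.8 and 40.9, and megakaryocyte and platelet genes (6) to between 68.1 and 123 and between 37.1 and 46.3. Macrophages also express Slc40a1, Fth1, Ftl1 and Ncoa4. The part of macrophages, neutrophils and the other cells listed here in the iron genes' values was not tested.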

How the data were processed

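RNA sequencing was done on 12 libraries, 3 for each of 4 sorted erythroblast stages, grouped by sample title. The authors removed adaptors and poor sequence with Cutadapt and a quality trimmer, aligned reads to mm10 (HISAT2) and counted them (featureCounts), and deposited an FPKM table with 1 value per gene and library. Versions, the annotation release and the tool for FPKM are not given in the sources used here. The labels and the study's methods name different extraction and library kits, so the kit is uncertain. Of 29839 lines, 1 repeated an identifier.

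Values were used as deposited. They showed no steps at low values, so whole reads and depth could not be recovered and no count model was used. Genes reaching an FPKM of 1 in 3 or more libraries were tested with limma 3.58.1 (R 4.3.3) on log2 values with a pseudocount of 1, a variance trend and all 12 libraries, two-sided, with Benjamini-Hochberg adjustment. The authors' own test was not repeated. A 2-fold call also needed an absolute log2 change of 1. The fit was tested on simulated data. Ortho against Baso was added after the data were seen. Deviations of same-numbered libraries correlated at 0.156 to 0.319 among Baso, Poly and Ortho, and at 0.00524 to 0.0968 with Pro, so the numbers were taken to pair the 3 later stages. Hairpins and positions come from GENCODE M21. Protein sequences were not used here. Alternatives varied the pseudocount, filter, scaling, variance trend, samples, pairing and call rule. The 10 genes, the lists of iron genes and cell markers, and the rules were chosen with earlier results of these data known. All 10 genes were described. Of each other iron list, the 3 highest expressed genes and the 2 highest and 2 lowest log2 fold changes past the test in Ortho against Pro were named, and so were the 3 most similar genes for each of the 10, while genes of the marker lists were named after their values were seen. Some items that these rules name are not reported here.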

Additional observations from a re-analysis of the deposited data

How the results depend on the processing

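Over 5 comparisons of 10 genes, 1041 of the alternative values kept their direction and their side of the threshold, 31 newly passed, 26 no longer passed and 22 changed sign. Counts of the 10 genes past limma's test over the fits without 1 library each ran from 7 to 7 (Baso against Pro), 6 to 9 (Poly against Pro), 8 to 8 (Ortho against Pro), 2 to 3 (Poly against Baso), 5 to 6 (Ortho against Poly) and 7 to 8 (Ortho against Baso), and from 40 to 42 of the 45 other iron genes. With at least 2-fold change also required, the 7 genes in Baso against Pro became 3. The 7 in Poly against Pro became 3, and the 3 in Poly against Baso 0. The share of all genes under this rule is not given for these comparisons, so the drops cannot be set beside it. The 41 other iron genes in Ortho against Pro became 21. Of these, 5 were higher and 16 lower, where 6.33% and 23.8% of all genes tested were. With no filter, 1 gene passed in Poly against Baso, where 963 of all 29838 genes did, and 1605 of 12994 with the filter. Pairing by replicate number (the block) moved the counts from 3 to 4 in Poly against Baso and from 5 to 6 in Ortho against Poly, or 7 in a paired fit of the 3 later stages, left 7, 7 and 8 against Pro and 41 other genes, and changed no call not named above. Counts of all 12994 genes also went up with pairing, from 1605 to 1894 in Poly against Baso and from 3397 to 3483 in Ortho against Poly. In the paired fit of the 3 later stages they were 2863 and 4002.

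Signs of log2 fold changes turned as follows, and causes were not tested. With rescaling to the same sum the turned values were Tfrc -0.35 and Ftl1 -0.36 in Ortho against Pro, Slc11a2 -0.14 and Ftl1 -0.16 in Baso against Pro, Slc25a38 -0.068 and Ftl1 -0.12 in Poly against Pro, and Slc25a37 -0.11 in Ortho against Poly. With the hemoglobin genes left out they were Slc11a2 0.22 in Poly against Pro, Fth1 0.19 in Baso against Pro, Ftl1 0.088 in Ortho against Poly, Slc25a37 0.062 and Ftl1 0.16 in Ortho against Baso, and Hmox2 0.16 and Abcb10 0.015 in Ortho against Pro. With median centring they were Slc11a2 0.13, Fth1 0.17, Ftl1 0.093 (Ortho against Poly) and 0.087 (Ortho against Baso) in the same comparisons, Ftl1 -0.0060 in Poly against Baso and Hmox2 0.094. Fits without 1 library each ran through 0 for Tfrc in Ortho against Pro (-0.091 without Pro 3, up to 0.11), Slc11a2 in Baso against Pro (-0.0069 without Pro 1, up to 0.072), and Ftl1 in Baso against Pro (-0.041 without Pro 3, up to 0.14), Ortho against Pro (-0.054 without Pro 3, up to 0.13) and Ortho against Baso (-0.039, up to 0.011 without Baso 2). The depth of the libraries is unknown, and with 3 libraries a stage the intervals above bound what could be seen.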
